A study of Homo sapiens with 15 samples.

Results

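The genes described here are 10 genes of the lysosome: the mannose 6-phosphate receptors IGF2R and M6PR, the lysosomal membrane proteins LAMP1, LAMP2 and CD63, the cathepsins CTSB, CTSD and CTSL, and the precursors PSAP and GRN. They were chosen by name and function as a list, with earlier results for the same 15 libraries and 5 groups known, so their levels and fold changes are a description and a count over them supports nothing. All 10 were found by symbol among the 18485 genes counted, and all 10 were among the 6767 deep enough to enter the fit. SNB19 cells, a human glioblastoma line grown in DMEM with serum, had been transduced with lentivirus. The groups carried the empty pCHMWS vector (EV), full-length ZBTB18 (FL), a mutant of the full-length form (FL-mut), the short form SF-Nte, or the mutant of the short form (SF-mut). All cells thus carried a vector, all came from 1 line, and the labels do not name the mutated residues. Each group had 3 libraries of polyadenylated RNA, read as amplified cDNA on an Oxford Nanopore platform. No source says whether the 3 were separate cultures, so a p-value here speaks of the spread among libraries, which may be technical.

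ZBTB18 lay between 4.37 and 7.12 CPM in the EV libraries and between 199 and 6858 CPM in the 12 construct libraries, each of them above every EV library. Totals ran from 1274474 to 1930245 counts in EV, from 803316 to 1393060 in FL and FL-mut, and from 315693 to 603155 in the short-form groups. A level is given as CPM, the count scaled to library size with TMM factors, and 3 counts are worth between 1.5 and 9.25 CPM in these libraries. The authors' first sample sheet lists EV, FL, FL-mut and SF-Nte, and a second lists SF-mut, under the barcodes of EV with a suffix, beside SF-Nte again. The handling of SF-mut and its construct, and the low depth and the short form, therefore cannot be told apart. Of 8 glioma markers 7 were in the table and 5 were tested. VIM (143 to 844 CPM) and CD44 (48.5 to 579 CPM) were well read in every library, SOX2 and NES were low (at most 27.7 and 32.8 CPM), CHI3L1 ran from 0 to 24.7 CPM, and GFAP and S100B reached 7.53 and 4.16 CPM at most. Their sum ran from 197 to 443 CPM in FL, from 468 to 1009 in EV and from 579 to 1147 in the other groups, and in FL against EV all 5 tested lay below 0, 3 of them at an unadjusted edgeR p under 0.05 and 0 called. The summed markers of immune cells, which are rich in lysosomes, held 15.4 CPM at most, with 6 of 10 in the table and none deep enough to be tested. Endothelial and epithelial markers (3 of 6 in the table each) summed to at most 21.4 and 12.5 CPM. In bulk RNA, fewer cells with a transcript and less of it per cell cannot be told apart.

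Soluble hydrolases reach the lysosome because Golgi enzymes place mannose 6-phosphate on their sugar chains, which the receptors IGF2R and M6PR bind and carry to endosomes before returning for another round. Cathepsins then cleave proteins in the acid lumen, prosaposin is cut into activators of sphingolipid breakdown, and progranulin into granulins. LAMP1 and LAMP2 line the membrane with a dense coat of sugar chains, and CD63 is a tetraspanin of late endosomes and exosomes. Many of these genes are driven by the MiT/TFE factors, TFEB among them, through a promoter element centred on CACGTG.

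That element is shown for IGF2R, the gene on which the comparison of groups turns, and for LAMP1, whose promoter held the most copies among the genes matched. Both windows are the 250 bases before the RefSeq start (GRCh38.p14), free of annotated exons, with CACGTG in capitals. The IGF2R window is chr6:159968832-159969081 and the LAMP1 window chr13:113296989-113297238, both on the plus strand.
IGF2R: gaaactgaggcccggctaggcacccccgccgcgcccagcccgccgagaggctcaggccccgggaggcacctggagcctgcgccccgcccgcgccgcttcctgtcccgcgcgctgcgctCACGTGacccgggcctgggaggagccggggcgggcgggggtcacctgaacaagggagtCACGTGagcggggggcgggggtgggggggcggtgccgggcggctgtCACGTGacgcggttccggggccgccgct
LAMP1: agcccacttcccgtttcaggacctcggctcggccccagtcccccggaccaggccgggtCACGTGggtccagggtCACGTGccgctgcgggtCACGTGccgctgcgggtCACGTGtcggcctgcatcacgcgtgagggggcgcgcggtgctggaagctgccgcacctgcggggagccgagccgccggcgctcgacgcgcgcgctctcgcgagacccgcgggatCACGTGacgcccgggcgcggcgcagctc
CACGTG, which reads the same on both strands, began 132, 74 and 28 bases before the start of IGF2R, and 192, 176, 159, 142 and 28 bases before that of LAMP1. Of the 35116 windows of this length in the RefSeq table, 6.34% held it at least once and 28 (0.0797%) at least 3 times. Over the 8084 windows of tested genes these shares were 8.14% and 0.161%. Windows were matched for 7 of the 10 genes, 15 windows in all. Of these windows 5 held the element, 1 for each of 5 genes: IGF2R, LAMP1, M6PR, CD63 and CTSD. CATCTG, the core of the E-box-like site that ZBTB18 is known to bind, was searched on both strands and was in 0 of the 15 windows, against 12.2% of all windows and 8.33% of those of tested genes. Of the 15 windows, 8 belong to CD63 and lie close together or overlap, so they are not separate chances. No copy of it can overlap CACGTG. These matches describe letters in a window and not binding.

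IGF2R had the lowest p of the 10 in the joint test of the groups. It encodes the cation-independent mannose 6-phosphate receptor, which also clears the growth factor IGF2 from outside the cell, and lies at 159969099 to 160113507 on chromosome 6 (GRCh38, plus strand), with 48 exons in a transcript of 14044 bases. The EV libraries held 55.5, 67.0 and 55.2 CPM. The FL libraries held 52.7, 113 and 50.3 CPM and the FL-mut libraries 32.3, 13.6 and 39.1 CPM. In SF-Nte it stood at 11.6, 5.65 and 4.98 CPM, and in SF-mut at 8.17, 6.16 and 6.15 CPM. All 6 short-form libraries lay below all 9 others, FL-mut lay below EV and FL without overlap, and FL and EV overlapped, as did the short-form groups. The order of the means was thus FL (72.1 ± 35.6 CPM; SD, n = 3), EV (59.2 ± 6.74), FL-mut (28.3 ± 13.2), SF-Nte (7.39 ± 3.62) and SF-mut (6.83 ± 1.16).

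Between SF-Nte and FL, IGF2R was 9.43-fold lower, a log2 fold change of -3.24 ± 0.56 (SE) with edgeR adjusted p = 0.0136 over all genes tested. It was the 1 member of 10 called in that comparison, which called 1.06% of all genes (39 lower and 33 higher). IGF2R had passed the filter on low counts through the 9 EV, FL and FL-mut libraries and 0 short-form ones. The call, like that of the joint test below, is therefore a description. The call was lost without FL replicate 2 (-2.77, adjusted p = 0.0624), SF-Nte replicate 2 (-3.07, 0.0825) or SF-Nte replicate 3 (-3.05, 0.0662), and held in the other 12 fits with 1 library left out. DESeq2 gave adjusted p = 8.12e-05 for the same difference. In the same comparison the glioma marker VIM, the gene for vimentin, rose (log2 fold change 1.75 ± 0.38, edgeR adjusted p = 0.0361), the 1 of the 5 tested markers called. ZBTB18 itself was 4.78-fold lower in SF-Nte than in FL, without overlap (log2 fold change -2.26 ± 0.76, edgeR adjusted p = 0.189). The part of either in the IGF2R difference was not tested. Set against EV, SF-Nte gave a log2 fold change of -2.96 ± 0.56 (edgeR adjusted p = 0.0882) and SF-mut one of -3.07 ± 0.57 (0.0691). Both missed the threshold of 0.05, while DESeq2 gave 0.00253 and 0.00489. SF-mut against EV passed in edgeR without FL-mut replicate 2 (adjusted p = 0.0384), and SF-Nte against EV without FL-mut replicate 2 and SF-mut replicate 2 together (0.0444), libraries that enter only through the shared spread and scaling. Without both, SF-mut against EV moved the other way, to an edgeR adjusted p of 0.136. With 1 library left out, edgeR adjusted p against EV ran from 0.0532 to 0.306 for SF-Nte and from 0.0384 to 0.242 for SF-mut. These comparisons share the EV libraries. IGF2R stood 5th of the 6767 genes by p in both, which is a description too, as it met the filter in 0 short-form libraries. For FL-mut the value was -1.05 ± 0.47 against EV (edgeR adjusted p = 0.454) and -1.33 ± 0.48 against FL (0.330), and for FL against EV 0.28 ± 0.46 (0.962), which turned to -0.20 without FL replicate 2. A joint test for any difference among the 5 groups gave IGF2R an edgeR adjusted p of 0.00705. It was the only member of the 10 called there, where 1.12% of all genes were called, and it passed in all 15 fits that dropped a single library (0.00407 to 0.0230). DESeq2 called CTSB there as well (adjusted p = 0.0279).

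The short-form values of IGF2R rest on few reads. SF-Nte held 11 counts in all (exact Poisson 95% interval 5.49 to 19.7, counting error only) and SF-mut 10 (4.80 to 18.4). At the mean EV level their depth would have given 86.0 and 84.4 counts. Long transcripts can be under-read in some nanopore libraries, so fold changes were set beside transcript length. For the 478 tested genes of 8 kb or more the median log2 fold change was -0.17 for SF-Nte against EV, -0.12 for SF-mut against EV and -0.35 for SF-Nte against FL. Of them, 6, 5 and 7 stood at or below IGF2R, IGF2R included. For FL-mut the medians were -0.10 against EV and -0.27 against FL, and 56 and 41 of the 478 stood at or below IGF2R. With a correction for transcript length, added after the data were seen, SF-Nte against FL was -2.99 (edgeR adjusted p = 0.0163) and the values against EV were -2.91 and -2.95. FL-mut was then -0.89 against EV and -0.97 against FL (edgeR adjusted p = 0.533 and 0.433). The shallower depth of the short-form libraries moves with the groups, and its part in the difference was not tested.

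**Figure D1:**
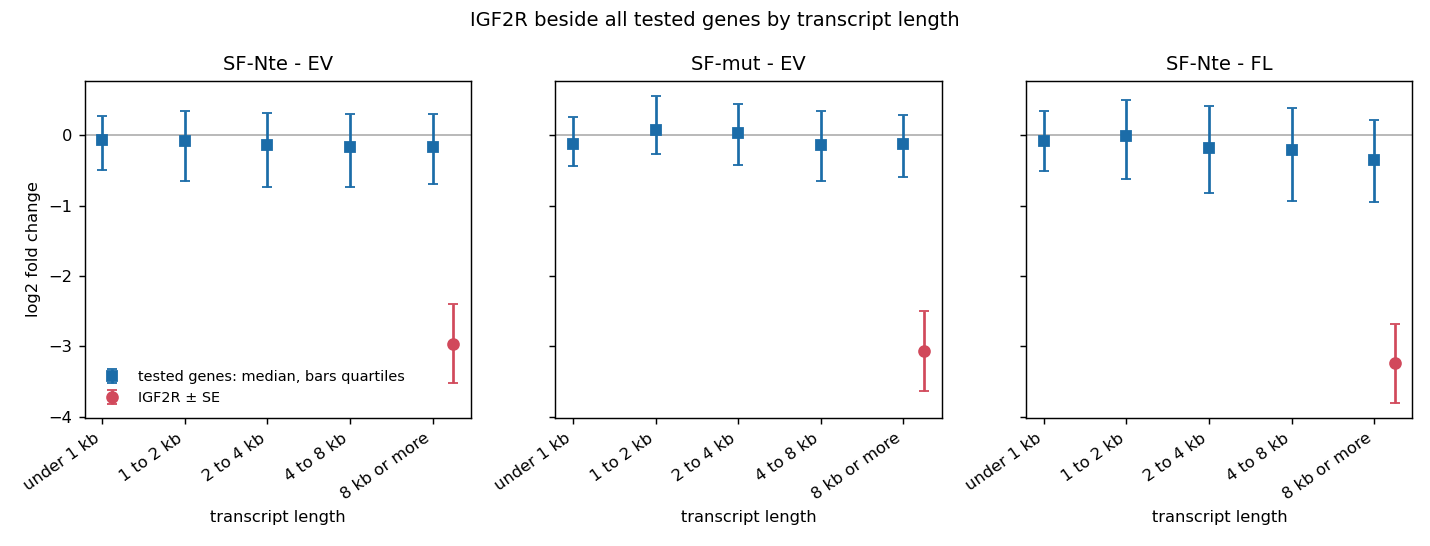
Log2 fold change (vertical axis) by transcript length (horizontal axis) in SF-Nte against EV, SF-mut against EV and SF-Nte against FL; squares are the median of all tested genes in a length class with bars to the quartiles, and the red point is IGF2R with its SE. The class medians lie near 0 against EV, and in SF-Nte against FL they run from -0.007 (1 to 2 kb) to -0.35 (8 kb or more). IGF2R (-2.96, -3.07 and -3.24) lies far below the quartiles of its class of 8 kb or more.

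M6PR, the small cation-dependent receptor (8940363 to 8949955 on chromosome 12, minus strand), did not follow IGF2R. It stood at 66.0, 96.2 and 61.4 CPM in EV, and at 60.3, 129 and 36.8 CPM in FL. The FL-mut libraries held 134, 134 and 135 CPM. SF-Nte had 117, 92.2 and 82.2 CPM, and SF-mut 75.2, 43.2 and 75.9 CPM. FL-mut lay above EV and FL in every library, whereas SF-mut lay below SF-Nte in every library. None of these differences passed. The log2 fold change was 0.85 ± 0.42 for FL-mut against EV, 0.84 ± 0.42 for FL-mut against FL and -0.58 ± 0.43 for SF-mut against SF-Nte (edgeR adjusted p = 0.50, 0.437 and 0.732). Its exons overlap those of PHC1 on the other strand, which had 136 counts over all libraries against 1236 for M6PR.

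None of the 3 membrane proteins passed in edgeR with the filter on low counts, though CD63 in FL-mut against EV did without it (adjusted p = 0.000618). CD63 met the filter in all 15 libraries, and in that comparison its SE was 0.50 with the filter and 0.32 without. LAMP1 (113297241 to 113323672 on chromosome 13) was near the limit of detection. EV held 7.50, 13.8 and 23.1 CPM, FL 19.4, 22.4 and 21.3, and FL-mut 32.3, 11.3 and 11.8. In SF-Nte it had 19.3, 7.53 and 2.49 CPM, and in SF-mut 11.4 CPM in replicate 1 and 0 counts in replicates 2 and 3, where 3 counts would be 9.25 and 6.15 CPM. The SF-Nte libraries lay below the FL libraries, narrowly, with a log2 fold change of -1.06 ± 0.90 and edgeR adjusted p = 0.660, and against EV the value for SF-mut was -1.70 ± 0.98 (0.941).

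LAMP2 (120427827 to 120469365 on chromosome X, minus strand), which also serves in chaperone-mediated autophagy, had 216, 269 and 304 CPM in EV and 167, 264 and 313 in FL. The FL-mut libraries held 233, 471 and 790.4 CPM, those of SF-Nte 495, 339 and 443, and those of SF-mut 309, 376 and 486. Both short-form groups lay above EV without overlap, by 0.70 ± 0.38 for SF-Nte and 0.57 ± 0.38 for SF-mut on the log2 scale, and neither passed (edgeR adjusted p = 0.724 and 0.977). FL-mut was 0.92 ± 0.38 above EV (0.409) and 1.01 ± 0.38 above FL (0.334), with overlap in both.

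CD63 (55725323 to 55729707 on chromosome 12, minus strand) stood highest in FL-mut, at 1367, 3162 and 2763 CPM. EV held 657, 1166 and 688 CPM, FL 485, 2362 and 881, SF-Nte 757, 858 and 891, and SF-mut 557, 1581 and 1017. All FL-mut libraries lay above all EV libraries. The log2 fold change was 1.54 ± 0.50, with edgeR adjusted p = 0.283 and DESeq2 adjusted p = 0.103. It was 0.00 ± 0.49 for SF-Nte against EV, where the means were 836 and 837 CPM.

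**Figure D2:**
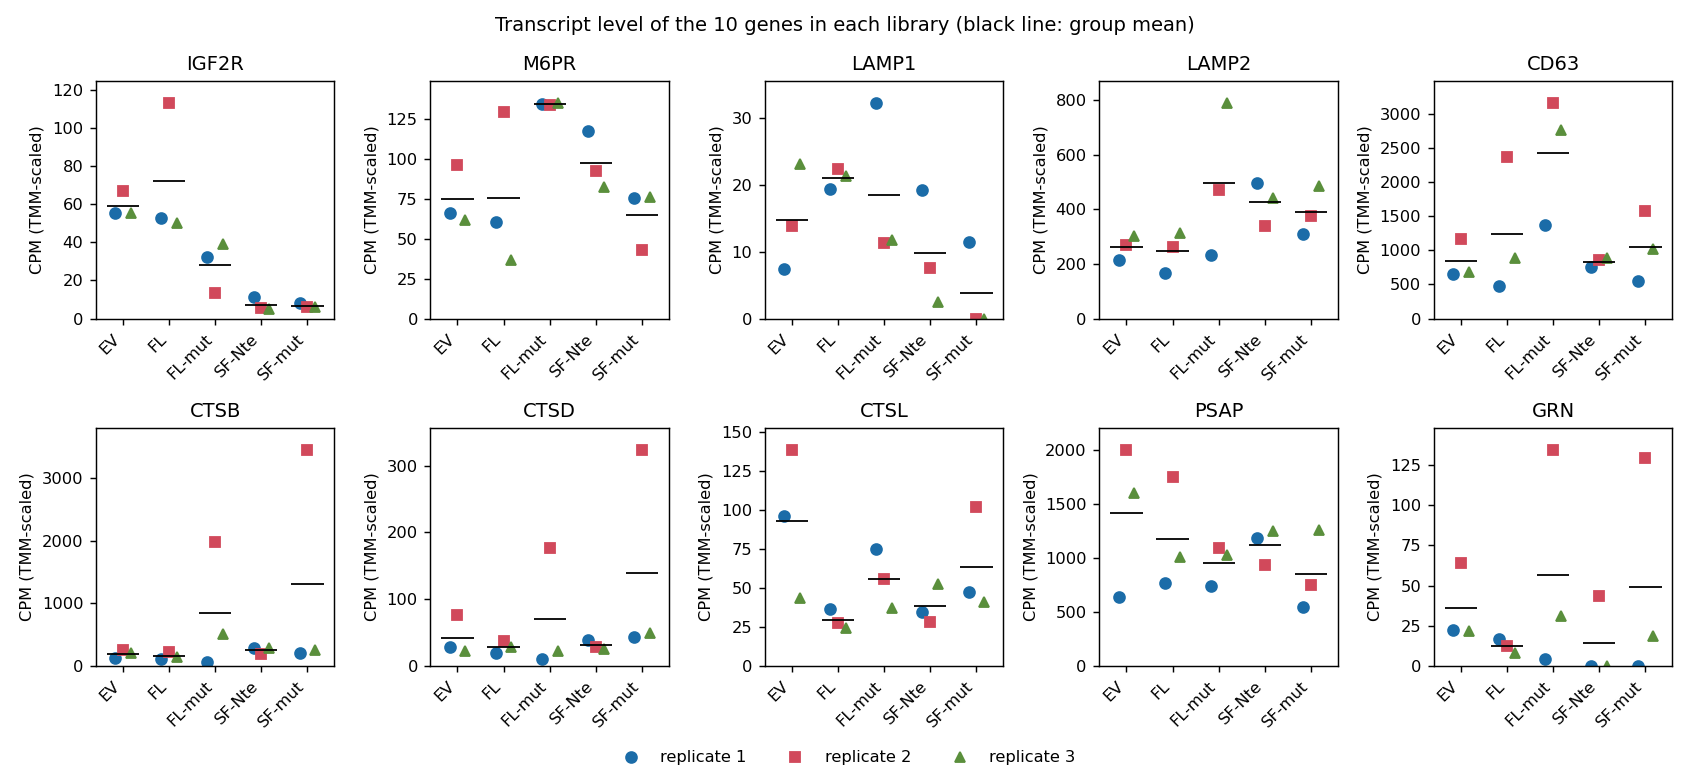
TMM-scaled CPM (vertical axes, from 0) of the 10 genes in each of the 15 libraries by group (horizontal axes), with colour and symbol for the replicate number and a black line at the mean of 3. IGF2R lies lowest in the 6 short-form libraries, and CTSB, CTSD and GRN each have 1 high library, replicate 2, in FL-mut and in SF-mut.

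Among the cathepsins and progranulin, CTSB, CTSD and GRN each had 1 library far above the others in both mutant groups. CTSB, a cysteine cathepsin, had 55.5, 1982 and 504 CPM in FL-mut and 209, 3458 and 246 CPM in SF-mut. EV held 119, 254 and 200.3 CPM, FL 101, 216 and 136, and SF-Nte 279, 196 and 289. Replicate 2 of SF-mut was thus 14.1-fold above the next library of its group, and replicate 2 of FL-mut 3.93-fold. The fitted log2 fold changes against EV were 2.15 ± 1.02 for FL-mut and 2.77 ± 1.05 for SF-mut (edgeR adjusted p = 0.479 and 0.784). With no filter on low counts both were called (edgeR adjusted p = 7.69e-06 and 6.05e-08). CTSB met the filter in all 15 libraries, and without the filter the SEs were 0.378 and 0.384. Leaving out replicate 2 of both mutant groups was an alternative added after the data were seen. The fold changes were then 0.60 and 0.21 (edgeR adjusted p = 0.862 and 0.999).

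CTSD, an aspartic cathepsin (1752752 to 1764573 on chromosome 11, minus strand), was high in the same libraries. It had 10.1, 177 and 21.4 CPM in FL-mut and 42.5, 324 and 49.2 in SF-mut, against 27.5, 76.5 and 22.3 in EV. FL held 19.4, 37.3 and 28.1 CPM and SF-Nte 38.5, 28.2 and 24.9. All SF-mut libraries lay above all SF-Nte libraries (log2 fold change 2.15 ± 0.97, edgeR adjusted p = 0.590), but the difference was 0.55 (0.947) without the 2 high libraries. With no filter on low counts CTSD was called in this comparison (edgeR adjusted p = 0.0488, SE 0.592). Its exons overlap those of AC068580.4, which had 13 counts in all against 667 for CTSD.

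GRN, progranulin (44345086 to 44353102 on chromosome 17), had 4.04, 135 and 31.0 CPM in FL-mut, and in SF-mut 0, 129 and 18.5. In SF-Nte it was read in replicate 2 alone, at 43.3 CPM, with 0 counts in the others, where 3 counts would be 5.78 and 7.47 CPM. EV held 22.5, 64.1 and 21.4 CPM and FL 16.6, 12.4 and 7.74, so that FL lay below EV without overlap (log2 fold change -1.53 ± 1.37, edgeR adjusted p = 0.900). FL-mut against FL gave 2.17 ± 1.39 (edgeR adjusted p = 0.550) and was called with no filter on low counts (0.0424, SE 0.662). Without replicate 2 of both mutant groups the value was 0.58 (0.957).

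The library that is high in CTSB, CTSD and GRN was replicate 2 in both mutant groups, and replicate 2 was also the highest EV library for 8 of the 10 genes, where it was highest for 28.96% of all tested genes. It was highest for 7 of 10 in FL (35.9% of all genes), for 5 of 10 in both mutant groups (35.3% in FL-mut, 33.4% in SF-mut) and for 1 of 10 in SF-Nte (31.7%). Among 32 other lysosomal hydrolases and cofactors it was highest for 16 in EV and 12 in FL, for 17 and 18 in the mutant groups FL-mut and SF-mut, and for 8 in SF-Nte. SF-mut replicate 2 was the shallowest library, with 315693 counts, and also held the most ZBTB18 of its group, 3631 CPM against 853 and 896. FL-mut replicate 2 had 865997 counts and 2800 CPM of ZBTB18, between the other 2. The part of these in the high cathepsin values was not tested. With the replicate number as a term, edgeR's adjusted p for that term was lowest for CD63 (0.401) and 0.499 for CTSD and GRN, and 0% of all genes passed. At an unadjusted p under 0.05 there were 6 of the 10 (CD63, CTSD, GRN, CTSB, PSAP and LAMP2), beside 625 of the 6767 genes.

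CTSL, another cysteine cathepsin (87725519 to 87731393 on chromosome 9), stood lower in FL than in EV. It had 96.0, 138 and 43.6 CPM in EV and 36.1, 27.4 and 24.2 in FL. All FL libraries lay below all EV libraries, although EV replicate 3 was close to them. FL-mut had 74.7, 55.5 and 36.9 CPM, above FL in every library though narrowly, SF-Nte 34.7, 28.2 and 52.3, and SF-mut 47.4, 102 and 41.0. The log2 fold change of FL against EV was -1.66 ± 0.50, with edgeR adjusted p = 0.232 and DESeq2 adjusted p = 0.0539, and that of SF-Nte against EV -1.28 ± 0.50 (0.606). CTSL has pseudogenes, of which 4 were in the table with 1 count each.

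PSAP, prosaposin (71816298 to 71851375 on chromosome 10, minus strand), had 639, 1999 and 1598 CPM in EV and 766, 1745 and 1003 in FL. FL-mut held 741, 1090 and 1023 CPM, SF-Nte 1183, 932 and 1248, and SF-mut 539, 743 and 1255. All groups overlapped with EV. The lowest fold change against EV was -0.74 ± 0.41 on the log2 scale, in SF-mut, with edgeR adjusted p = 0.940.

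Over the 10 genes, FL against EV called 0 (0.310% of all genes called), FL-mut against EV 0 (0.192%), SF-Nte against EV 0 (0.0443%), SF-mut against EV 0 (0.0591%), FL-mut against FL 0 (0.0887%) and SF-mut against SF-Nte 0 (0% of all genes, where DESeq2 called 4 and 564 had an unadjusted p under 0.05). The unadjusted edgeR p was under 0.05 for 1, 3, 2, 2, 3 and 2 of the 10 in that order, beside 7.64%, 10.5%, 7.23%, 5.36%, 12.1% and 8.33% of all genes. DESeq2 called IGF2R in SF-Nte and in SF-mut against EV and no member in the other 4. It gave an adjusted p for 8 of the 10 in FL-mut against FL and for 9 in each of the others. The difference between the mutation's effect on the short and the full-length form called 0 of the 10 by edgeR (0.0296% of all genes). DESeq2 called 0 of the 9 to which it gave an adjusted p. By edgeR 2 of 10, M6PR and LAMP2, had an unadjusted p under 0.05, beside 4.65% of all genes.

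Groups did not overlap for 2 of the 10 in FL against EV (16.9% of all genes), 3 in FL-mut against EV (17.4%), 2 in SF-Nte against EV (17.3%), 2 in SF-mut against EV (10.6%), 3 in FL-mut against FL (18.4%), 2 in SF-mut against SF-Nte (12.4%) and 3 in SF-Nte against FL (24.4%). The median log2 fold change of the 10 against EV was -0.18 with FL, 0.68 with its mutant, -0.39 with SF-Nte and 0.07 with SF-mut, beside -0.01, 0.04, -0.13 and -0.02 over all genes. In FL-mut 7 lay above 0 and 3 below, and in SF-mut 5 and 5. These values rest on replicate 2 of the mutant groups: without those 2 libraries the median was -0.06 in FL-mut (5 above and 5 below) and -0.42 in SF-mut (3 and 7).

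**Figure D3:**
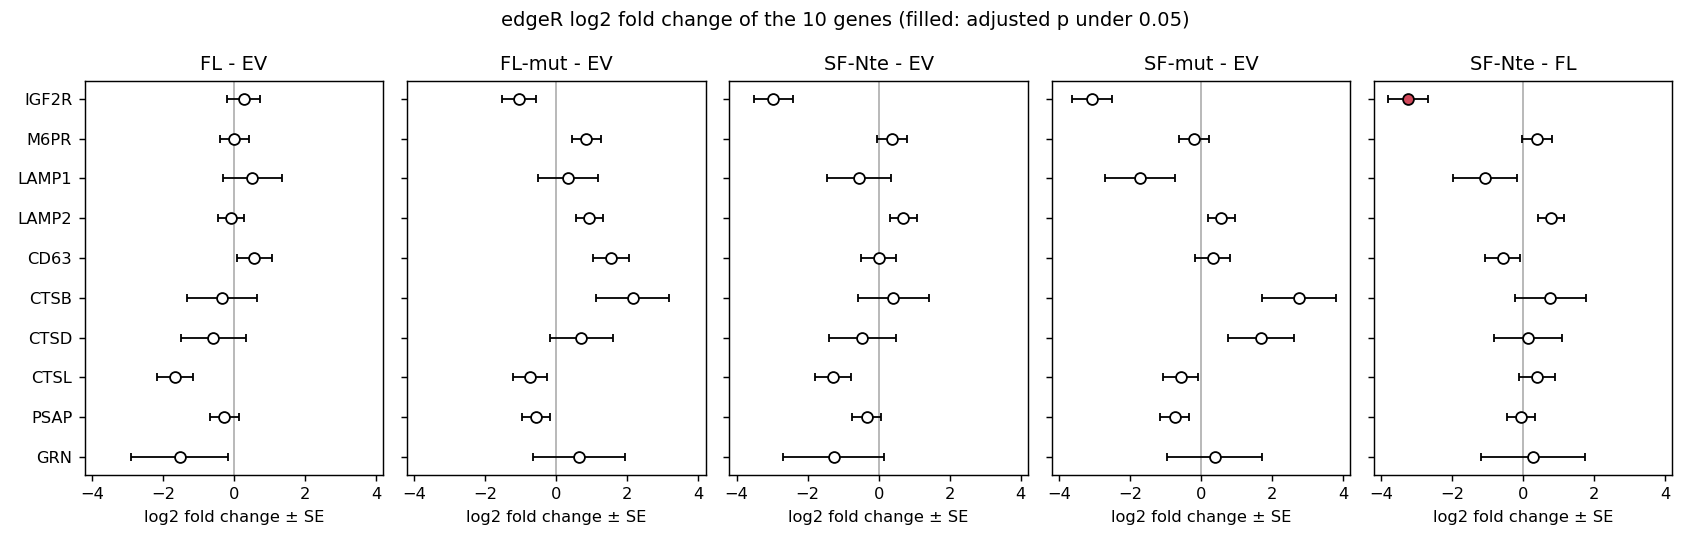
Log2 fold change with its SE (horizontal axes) of the 10 genes (vertical axis) for the 4 constructs against EV and for SF-Nte against FL. The filled point marks the 1 value past an adjusted p of 0.05, IGF2R in SF-Nte against FL at -3.24, and CTSB, CTSD and GRN have wide bars.

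The other lysosomal genes were read from 6 lists, in which 96 genes were tested. EdgeR called 0 of them in the 7 comparisons of groups and in the test of the mutation's effect between forms. At an unadjusted p under 0.05 there were 4 higher and 2 lower in FL against EV, 11 and 4 in FL-mut against EV, 1 and 4 in SF-Nte against EV, 3 and 5 in SF-mut against EV, 11 and 1 in FL-mut against FL, 7 and 2 in SF-mut against SF-Nte, 2 and 10 in SF-Nte against FL, and 0 and 1 in the last. The share of all genes at that p, in either direction, was 7.64%, 10.5%, 7.23%, 5.36%, 12.1%, 8.33%, 13.2% and 4.65% in the same order. DESeq2 called NPC1 in FL against EV, NPC1 and RHEB in FL-mut against EV, and NEU1, NPC1 and ATP6V0B in SF-Nte against FL.

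Among the 18 tested genes that make the mannose 6-phosphate tag or sort and recycle its receptors, the median log2 fold change against EV lay between -0.25 (SF-Nte) and 0.09 (FL-mut). CLTC, the clathrin heavy chain that coats the vesicles carrying these receptors, had 87.5, 126 and 2179 CPM in EV and 88.2, 43.2 and 49.2 in SF-mut. Its fitted log2 difference of -3.71 ± 1.003 in SF-mut (edgeR adjusted p = 0.421) thus rests largely on EV replicate 3. No fit of CLTC without that library is given. AP1M1, a subunit of the adaptor that loads those vesicles, averaged 28.3 ± 1.19 CPM in EV and 67.4 ± 23.4 in FL-mut (SD, n = 3; log2 fold change 1.25 ± 0.43, adjusted p = 0.308).

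Of the 32 other hydrolases and cofactors, 23 lay above 0 in FL-mut against EV (median 0.63, beside 0.04 over all genes). In SF-Nte against EV 12 did (median -0.30, beside -0.13). FL-mut replicate 2 was the highest library of its group for 17 of the 32, and no median without it is given. NEU1, a sialidase, had 186, 255 and 116 CPM in FL and 23.1, 11.3 and 29.9 in SF-Nte, with no overlap, a log2 fold change of -3.12 ± 0.85 and edgeR adjusted p = 0.105. SGSH, a sulfamidase of heparan sulfate breakdown, stood at 14.7 ± 2.32 CPM in EV (SD, n = 3), and in SF-mut had 3 counts in replicate 1 and 0 in the others (edgeR adjusted p = 0.663).

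Among the 13 other membrane proteins, NPC1, which exports cholesterol from the lysosome, had 13.5, 13.1 and 17.8 CPM in EV, 46.5, 719 and 219 in FL and 159, 66.8 and 1192 in FL-mut. Every FL and FL-mut library lay above every EV library, and the log2 fold change of FL-mut was 4.99 ± 1.08 with edgeR adjusted p = 0.0785. In the short-form groups NPC1 held 15.4, 16.9 and 49.8 CPM (SF-Nte) and 22.9, 9.25 and 36.9 CPM (SF-mut). TMEM106B, a lysosomal membrane glycoprotein, averaged 46.5 ± 8.68 CPM in EV and 97.4 ± 37.2 in FL-mut (SD, n = 3; edgeR adjusted p = 0.367).

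Of 15 tested subunits and partners of the V-ATPase, the proton pump that acidifies the lysosome, 14 lay above 0 in FL against EV (median 0.43) and 13 below 0 in SF-Nte against FL (median -0.88, beside -0.15 over all genes). These comparisons share the FL libraries. ATP6V0B, a membrane subunit, averaged 361 ± 132 CPM over FL, 982 ± 491 over FL-mut, 70.9 ± 7.56 over SF-Nte and 431 ± 439 over SF-mut (SD, n = 3 each), and its log2 difference between SF-mut and SF-Nte was 2.59 ± 0.69 (edgeR adjusted p = 0.574). The SF-mut libraries held 196, 937 and 160 CPM, so that replicate 2 was the highest, as for CTSB. No fit of ATP6V0B without that library is given. ATP6V1F, a subunit of the catalytic part, averaged 1188 ± 263 CPM over FL and 689 ± 46.9 over FL-mut (log2 fold change -0.79 ± 0.25, edgeR adjusted p = 0.284).

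Among 14 tested MiT/TFE factors and mTORC1 components, the median log2 fold change against EV lay between -0.01 (SF-mut) and 0.28 (FL). RHEB, the GTPase that activates mTORC1, averaged 30.2 ± 6.80 CPM in EV and 85.3 ± 20.6 in FL-mut (SD, n = 3; log2 fold change 1.49 ± 0.47, edgeR adjusted p = 0.262). MITF, a factor of this family, had 10 counts over the EV libraries, 20 over FL and 40 over FL-mut, or means of 2.38, 6.09 and 12.1 CPM. SF-Nte had 0, where 3 counts in a library would be 5.65 to 7.47 CPM, above the EV mean. SF-mut had 7 counts in its shallower libraries, a mean of 6.50 CPM, with 15.4 CPM in replicate 2. Of the cathepsin inhibitors 4 were tested. CSTB, cystatin B, had 46.5, 481 and 233 CPM in FL-mut and 91.5, 438 and 28.7 in SF-mut, so that replicate 2 was the highest library in both groups, as for CTSB. CSTA, cystatin A, had 3.47, 72.1 and 29.04 CPM in FL and 0, 3.76 and 4.98 in SF-Nte (edgeR adjusted p = 0.276).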

How the data were processed

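The deposited values are raw counts, whole numbers by gene symbol with 1 column per library. The build was GRCh38 per the submitters' processing notes, and the aligner, counter, annotation and strand setting were not given in the sources used here. Columns were matched to samples through the barcodes in the authors' sample sheets, and groups and replicate numbers came from the titles. The members, the 6 pathway lists and the tests were chosen with earlier results of these data known. Counts were fitted with edgeR 4.0.16 in R 4.3.3 across all 15 libraries: filterByExpr (minimum count 10, minimum total 15) left 6767 genes, TMM scaling, 1 coefficient per group, robust quasi-likelihood test, Benjamini-Hochberg adjustment over all genes, threshold 0.05. A standard error is the size of the log2 fold change divided by the square root of F. All 10 members passed the filter. IGF2R passed in the 9 EV, FL and FL-mut libraries and in 0 short-form libraries, and LAMP1 and GRN in 10 of 15 each. DESeq2 1.42.0 was an alternative. The edgeR test of FL against EV, and no other, was checked on simulated counts, with the same spread for every gene.

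Named were all members, ZBTB18, and from each list, as none passed, the 2 genes of lowest unadjusted p. No libraries of 1 group were duplicates (chi-square per gene of at least 4.23). Same-numbered libraries deviated together between EV and FL over 2082 genes (r = 0.37, 0.16 and 0.52, all over 0.1), and in no other comparison did all 3 pairs. All reported values come from the fit without pairing, and the block by replicate number, an alternative, was fitted over all 5 groups at once. Positions and transcript lengths are from GENCODE 29 (98.3% of tested genes matched) and promoters from RefSeq. Reads carry no molecular identifiers, so floors and intervals cover counting error only.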

Additional observations from a re-analysis of the deposited data

Results flagged for a closer look

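M6PR was higher in all 3 FL-mut libraries than in all 3 FL libraries, and lower in all 3 SF-mut libraries than in all 3 SF-Nte libraries. The mutant group thus lay on opposite sides of the unmutated group in the 2 forms. The nearest libraries held 129 (FL) and 134 CPM (FL-mut), and 75.9 (SF-mut) and 82.2 CPM (SF-Nte). The difference between these 2 contrasts, tested in edgeR as an interaction, was -1.41 ± 0.60 on the log2 scale (unadjusted p = 0.0320, adjusted p = 0.997) and did not pass. It rests on 3 libraries a group, and M6PR was noticed among 10 genes looked at. ZBTB18 was 5.94-fold higher in SF-mut than in SF-Nte, without overlap (edgeR adjusted p = 0.574). The part of that and of the handling of SF-mut was not tested.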

How the results depend on the processing

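Of 1979 log2 fold changes of the 10 genes under the alternatives, 1846 kept their direction and side of the threshold, 35 others did so but moved by over 1 SE, 13 newly passed, 3 no longer passed and 82 changed sign, in 30 of the results. None of the 82 passed the threshold. The 3 lost were IGF2R in SF-Nte against FL without 1 library. Depth limits IGF2R, LAMP1 and GRN in the short-form groups.

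Genes called by DESeq2 numbered 137 with FL, 149 with its mutant, 32 with SF-Nte and 25 with SF-mut against EV, 119 in FL-mut against FL, 4 in SF-mut against SF-Nte, 291 in SF-Nte against FL, 7 for the interaction and 641 for any difference. Without a filter on low counts they were 202, 219, 121, 81, 348, 193, 301, 49 and 1059. A fit of only the compared groups gave 13, 3, 1, 2, 0, 0, 130 and 0, in the same order up to the interaction. DESeq2 size factors gave 1 in SF-Nte against EV, and library totals gave 1 and the length correction 0 for the interaction. Leaving out FL-mut replicate 2 and SF-mut replicate 2 together gave 54, 20, 6 and 1 against EV, 120 in SF-Nte against FL and 0 for the interaction. That setting and the length correction were chosen after seeing the data. Members called by DESeq2 were 1 in SF-Nte and 1 in SF-mut against EV and 2 for any difference. Without the filter they were 2, 1 and 2 for FL-mut, SF-Nte and SF-mut against EV, 2 in FL-mut against FL, 2 in SF-mut against SF-Nte and 5 for any difference, and 1 in SF-Nte against EV without the 2 libraries. The cause was not tested.

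With 1 library left out, genes called ran from 6 to 39 with FL, 1 to 28 with its mutant, 0 to 5 with SF-Nte and 1 to 6 with SF-mut against EV, 2 to 10 in FL-mut against FL, 0 to 0 in SF-mut against SF-Nte, 12 to 91 in SF-Nte against FL, 0 to 1 for the interaction and 36 to 140 for any difference. Members called ran from 0 to 1 in SF-mut against EV and in SF-Nte against FL.

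With the replicate number as a block, genes called were 25, 11, 5, 5, 7, 0, 81, 2 and 93 in the order above, and IGF2R in SF-Nte against FL had an adjusted p of 0.0166. The block changed no member's call.

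The values that changed sign, on the log2 scale, were as follows. With the replicate block they were M6PR -0.037 in FL against EV, GRN -0.043 in FL-mut against EV, CD63 0.086 in SF-Nte against EV, GRN -0.51 in SF-mut against EV, PSAP 0.041 and GRN -1.26 in SF-Nte against FL, and GRN 0.79 for the interaction. Without FL-mut replicate 2 and SF-mut replicate 2 they were M6PR -0.028 in FL against EV, CTSD -1.39 and GRN -0.98 in FL-mut against EV, CD63 -0.14 and GRN -2.07 in SF-mut against EV, LAMP1 0.057 and CTSD -0.77 in FL-mut against FL, CD63 -0.12, CTSB -0.19 and GRN -0.80 in SF-mut against SF-Nte, and PSAP 0.013 for the interaction. M6PR in FL against EV was -0.086 without a filter and -0.018 with only the compared groups. CD63 in SF-Nte against EV was 0.0045 with only the compared groups, 0.014 with DESeq2 size factors, 0.011 in DESeq2 and 0.012 with a stricter filter. With library totals they were IGF2R 0.051 and LAMP2 0.021 in SF-mut against SF-Nte, CTSD -0.048 in SF-Nte against FL and CTSB 0.026 for the interaction.

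With 1 library left out, FL against EV ran over CD63 -0.29 to 0.91, CTSD -0.91 to 0.14, IGF2R -0.20 to 0.45, LAMP2 -0.31 to 0.10, M6PR -0.61 to 0.31 and PSAP -0.67 to 0.037. FL-mut against EV ran over CTSD -1.41 to 1.40, GRN -1.02 to 1.29 and LAMP1 -0.39 to 0.74. SF-Nte against EV ran over CD63 -0.16 to 0.30 and CTSD -0.78 to 0.27, and SF-mut against EV over CD63 -0.11 to 0.55 and GRN -2.05 to 0.98. FL-mut against FL ran over CTSD -0.81 to 1.77, LAMP1 -0.88 to 0.044 and PSAP -0.54 to 0.089. SF-mut against SF-Nte ran over CD63 -0.11 to 0.54, CTSB -0.18 to 2.74, GRN -0.79 to 8.39 and IGF2R -0.35 to 0.29. SF-Nte against FL ran over CD63 -0.93 to 0.28, CTSD -0.075 to 0.36, GRN -6.58 to 0.87 and PSAP -0.27 to 0.32. The interaction ran over CTSB -2.71 to 1.40, CTSD -0.76 to 2.92, CTSL -0.72 to 0.037, GRN -2.99 to 6.25 and PSAP -0.57 to 0.082. GRN has 0 counts in SF-Nte without replicate 2, so its fitted values there are no measure of size.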
